A study of Mus musculus with 6 samples.

Results

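The common gamma chain cytokine receptors were followed in T cells sorted from intracranial CT2A tumors, a mouse glioma line, in wild-type C57BL/6J mice of 6 to 8 weeks. The members were taken by name: Il2ra, Il2rb, Il2rg, Il7r, Il4ra and Il21r, which are 6 of the 32285 genes in the files. All 6 were found, each under 1 Ensembl identifier, and all 6 passed the count minimum in each of the 9 comparisons described here. CD3+ cells were captured with 10x 5' chemistry at day 13 and at day 19, with 1 capture per day, and each capture gave gene expression, antibody tags and T cell receptor contigs. The design text states 16 mice at day 13, pooled by 4 for each replicate, and 4 mice at day 19. Mice of both days share genotype, strain, age range and tumor line, and no treated or tumor-free group was analysed here.

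These receptors pair a cytokine-specific chain with Il2rg, the common gamma chain, which signals through JAK3. Il2ra (CD25) raises the affinity for IL-2, and Il2rb (CD122) is the signalling partner of Il2rg in the receptors for IL-2 and IL-15. Il7r (CD127), Il4ra and Il21r confer binding of IL-7, IL-4 and IL-21. In T cells, IL-7 receptor is known as a feature of naive and memory cells, CD25 of regulatory and recently activated cells, and CD122 of cytotoxic effector and memory cells; TSLP and IL-13 use Il7r and Il4ra in receptors that lack the gamma chain.

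By RefSeq on GRCm38.p6, Il2ra (ENSMUSG00000026770) lies at chr2:11642792-11693194, Il7r (ENSMUSG00000003882) at chr15:9506159-9529941 and Il4ra (ENSMUSG00000030748) at chr7:125552271-125579474. Il21r (ENSMUSG00000030745) lies at chr7:125603252-125634397, Il2rb (ENSMUSG00000068227) at chr15:78479256-78511621 and Il2rg (ENSMUSG00000031304) at chrX:101264385-101268255. Up to 250 bases before the promoter table's start, as far as they lie outside the gene model, are shown for Il2ra, Il7r and Il4ra, since these 3 genes separated the T cell states most. They are from RefSeq on the same build, 5′ to 3′ on the gene's own strand, with matches to 4 motifs in capitals on either strand.
Il2ra, chr2:11642542-11642791, plus strand: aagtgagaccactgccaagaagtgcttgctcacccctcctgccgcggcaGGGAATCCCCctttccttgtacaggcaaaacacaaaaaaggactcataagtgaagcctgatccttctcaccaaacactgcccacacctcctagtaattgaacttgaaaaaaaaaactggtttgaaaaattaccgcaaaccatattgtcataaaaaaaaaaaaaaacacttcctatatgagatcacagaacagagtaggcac
Il7r, chr15:9529942-9530126, minus strand: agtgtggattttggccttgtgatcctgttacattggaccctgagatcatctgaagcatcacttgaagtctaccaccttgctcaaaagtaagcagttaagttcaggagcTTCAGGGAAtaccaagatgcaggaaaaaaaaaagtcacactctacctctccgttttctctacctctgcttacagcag
Il4ra, chr7:125552021-125552270, plus strand: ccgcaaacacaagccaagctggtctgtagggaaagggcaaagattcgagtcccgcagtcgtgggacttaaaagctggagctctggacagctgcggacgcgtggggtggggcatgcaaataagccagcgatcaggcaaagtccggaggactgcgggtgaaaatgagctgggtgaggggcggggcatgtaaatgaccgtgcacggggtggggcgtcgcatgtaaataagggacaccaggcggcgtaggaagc
The Il2ra stretch held the NF-kB motif, GGGA and CC with 4 bases of any kind between, once, which 17.6% of 32851 promoter windows of 250 bases held. The Il7r stretch held the STAT motif TTCNNNGAA once, against 7.02% of promoters. The Il4ra stretch held none of the 4, the others being the AP-1 motif TGANTCA (6.75% of promoters) and the forkhead motif GTAAACA (3.17%). These matches are letters in a window, and no binding was measured.

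Cells were contig barcodes with at least 5000 gene UMIs, at most 10% mitochondrial UMIs and at most 3 UMIs of C1qa, Lyz2 and Csf1r together. This left 3775 cells at day 13 and 2159 at day 19, with medians of 7126 and 8792 UMIs. A cell was put with the CD8 T cells when Cd8a or Cd8b1 was detected without Cd4 (2646 and 1436 cells), and CD4 T cells the reverse (499 and 377); 182 and 114 barcodes with both were in no class. Contigs came in 4 sets per day, which the labels do not tie to the stated replicates. Of the expanded clonotypes of the 4 day-19 sets, 2 of 4, 5 of 32, 3 of 5 and 3 of 6 also occurred in another set of that day, and at day 13 0 of 9, 1 of 34, 2 of 16 and 2 of 10 did. Of the day-19 cells, 221 carried most multiplexing tag UMIs on another tag than that of their set or had none, 184 of them in set 2; without such cells all 96 log2 ratios of members stayed inside their counting intervals. The 2 captures shared 13 cell barcodes. All 6 T cell markers were detected in both classes on both days, at a summed 2828 to 3581 UMIs per 1000000 gene UMIs (CPM). All 6 macrophage markers were also detected, at a summed 56.8 to 165 CPM, lowest in CD8 T cells at day 13 and highest in CD4 T cells at day 19. The comparisons were also run with no limit on C1qa, Lyz2 and Csf1r and in cells with no UMI of these genes. In the latter cells expanded CD4 T cells were too few to compare. Other cell types' markers also moved with the days: in CD4 T cells all 4 B cell markers summed to 63.3 and then 17.8 CPM and all 5 dendritic cell markers to 111 and then 60.8 CPM. In CD8 T cells the dendritic cell markers summed to 29.6 and then 11.9 CPM and both natural killer (NK) cell markers, Ncr1 and Klrb1c, to 12.2 and then 34.6 CPM. The choroid plexus markers Ttr and Enpp2 stood at 1.56 and 2.23 CPM in CD4 and CD8 T cells at day 13 and at 138 and 125 CPM at day 19, when 1 CD4 T cell held 510 of the 520 UMIs and the terminal class 1998 of the 2002 in CD8 T cells. Cells with more than 3 UMIs of these B cell, dendritic and choroid plexus markers (53 and 27 CD4, 60 and 23 CD8 T cells) were left out as a check chosen after seeing the data, and cells with any NK marker UMI as another; their values are given beside the results concerned.

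Values are CPM of summed UMIs, and log2 ratios carry a 95% interval that covers counting error only. Each day is 1 capture, so these intervals hold no replicate error, and day and capture cannot be told apart. A difference was called when it was at least 1.5-fold with an interval off 0, and, within captures, when this held in the same direction on both days. The words higher, lower, rose and fell are used for called differences, and other differences are given as values.

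As a further check, also chosen after seeing the data, the 4 contig sets of each day were taken as replicates in edgeR's quasi-likelihood test with Benjamini-Hochberg adjustment over all genes, with the set as a block within a day. It rests on the sets being the stated replicates, and sets of 1 day share a capture and some clonotypes. Of the 15 called differences 9 passed it at an adjusted p of 0.05, on both days where both were compared. The expanded CD4 comparison could not be fitted, with too few sets of at least 10 cells on each side. The edgeR values below are adjusted p-values of this test, and beside them stands the share of all genes that passed it. The share is given in each direction or, for days within a class, at least in the direction of the members called.

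Within CD8 T cells, those with a Pdcd1 UMI had more Il2ra and less Il7r and Il4ra than those without, on both days and in all 4 sets of each day. Pdcd1 encodes PD-1, an inhibitory receptor of activated and exhausted T cells. Il2ra stood at 54.3 against 22.0 CPM at day 13 and 61.9 against 16.8 CPM at day 19, log2 ratios of 1.30 (interval 1.10 to 1.52) and 1.88 (1.59 to 2.18). Il7r stood at 129 against 301 CPM and at 98.8 against 188 CPM, log2 ratios of -1.22 (-1.31 to -1.14) and -0.93 (-1.05 to -0.80). Il4ra stood at 34.9 against 100.2 CPM and at 31.6 against 83.4 CPM, log2 ratios of -1.52 (-1.68 to -1.36) and -1.40 (-1.61 to -1.20). The 3 members thus went in 2 directions, and 8.82% of 8504 genes were higher and 3.32% lower by the same rule. With sets as replicates all 3 passed edgeR's test, at adjusted p = 0.0002812 and 9.876e-05 for Il2ra, 1.067e-06 and 4.669e-05 for Il7r and 1.45e-07 and 1.097e-06 for Il4ra, when 9.96% of genes passed as higher and 10.4% as lower on both days. Il2rb pointed opposite ways: its log2 ratio was -0.054 (-0.10 to -0.01) at day 13 and 0.62 (0.56 to 0.67) at day 19, when Pdcd1-positive cells had 974 and Pdcd1-negative cells 636 CPM. Il2rg and Il21r were not called, 0.17 for Il21r at day 19 being the widest of their ratios. With at least 8000 UMIs per cell the Il7r ratio at day 19 was -0.46, under the 1.5-fold size. Pdcd1-positive cells were also the deeper ones, with medians of 8649 against 6672 UMIs at day 13 and 11332 against 7618 at day 19.

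Among Pdcd1-positive CD8 T cells, those with Havcr2 and no Tcf7 (terminal, 222 and 348 cells) were set against those with Tcf7 and no Havcr2 (progenitor, 428 and 143 cells). Terminal cells were deeper, with medians of 12958 against 7714 UMIs at day 13 and 12155.5 against 11118 at day 19. Tcf7 encodes TCF-1, a factor of stem-like T cells, and Havcr2 encodes TIM-3. Terminal cells had more Il2ra and Il2rb and less Il4ra. Il2rb stood at 890 against 569 CPM at day 13 and at 1169 against 578 CPM at day 19, log2 ratios of 0.65 (0.57 to 0.72) and 1.02 (0.92 to 1.11), and was higher in terminal cells in all 4 sets of both days. Il2ra stood at 81.0 against 31.8 CPM and at 66.3 against 36.7 CPM, log2 ratios of 1.35 (1.04 to 1.66) and 0.85 (0.47 to 1.25), with more in terminal cells in 4 of 4 sets at day 13 and 3 of 4 at day 19. A single progenitor cell at day 19 held 38 of the 70 Il2ra UMIs of that class. The day-19 ratio of Il2ra was 2.98 in cells with no macrophage gene UMI, 2.69 without cycling cells, 2.68 without the 5% of cells with most UMIs and 1.78 with classes from thinned counts, and it was 1.91 without set 3 and 0.59 without set 4 of that day. Il4ra stood at 22.6 against 49.9 CPM and at 27.0 against 45.1 CPM, log2 ratios of -1.15 (-1.54 to -0.76) and -0.74 (-1.15 to -0.33), with less in terminal cells in 4 of 4 and 3 of 4 sets. By the same rule 3.49% of 6274 genes were higher and 4.29% lower. With sets as replicates Il2rb passed edgeR's test (adjusted p = 0.002056 and 2.462e-06), as 3.46% of genes did as higher and 4.05% as lower. Il2ra (edgeR adjusted p = 0.01207 and 0.103) and Il4ra (0.00183 and 0.09287) passed it at day 13 and not at day 19. Without day-19 set 2, which held 223 of the 348 terminal cells, the day-19 ratios of Il2ra and Il4ra were 0.31 and -0.47 and neither was called; that of Il4ra was also not called with no macrophage limit (-0.44) or with equal weight per set (-0.56); without day-13 set 4 the Il2rb ratio at day 13 was 0.54, also not called. It was 0.55 to 0.58, just under 1.5-fold, without cycling cells, without ribosomal genes, centred on the median gene, with equal weight per set or with no macrophage limit.

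Il7r showed the widest gap between the days in this comparison. The depth gap between the classes, given above, was also wider at day 13, and its part was not tested. Terminal cells had 57.6 CPM at day 13 against 239 CPM in progenitor cells, a log2 ratio of -2.06 (-2.28 to -1.84). At day 19 the levels were 90.4 and 131 CPM, a log2 ratio of -0.54 (-0.77 to -0.31), which is under 1.5-fold, so the member was not called; it was called without day-19 set 2 (-1.26) and at a minimum of 3000 UMIs (-0.82), among other settings. At day 13 all 4 sets had less Il7r in terminal cells, and at day 19 3 of 4 did.

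**Figure D1:**
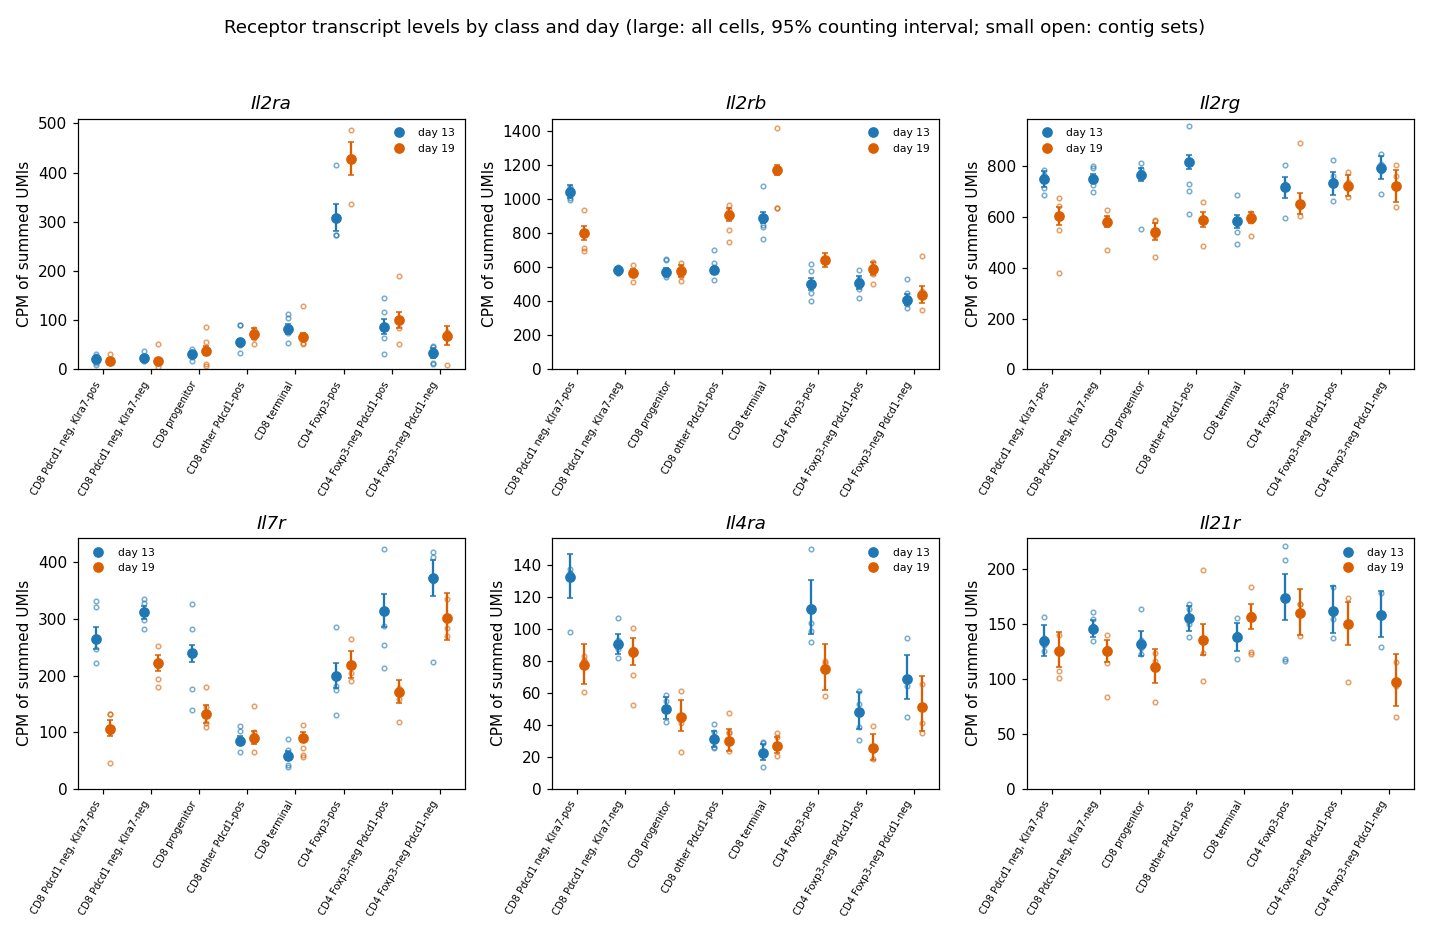
CPM of each receptor gene (y axis) in 8 T cell classes (x axis) at day 13 and day 19; large points are all cells of a class with 95% counting intervals and small open points are contig sets with at least 10 cells. Il2ra is highest in Foxp3-positive CD4 T cells, Il2rb at day 19 in terminal CD8 T cells (1169 CPM), and Il7r is lowest at day 13 in terminal CD8 T cells (57.6 CPM).

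CD4 T cells had more Il2ra than CD8 T cells, 147 against 38.5 CPM at day 13 and 222 against 43.0 CPM at day 19. The log2 ratios were 1.93 (1.79 to 2.08) and 2.37 (2.22 to 2.52), with the same direction in all 8 sets. Of 9027 genes, 7.95% were higher and 4.08% lower in CD4 T cells. With sets as replicates Il2ra passed edgeR's test at adjusted p = 1.61e-07 and 3.603e-08, and 9.14% of genes passed as higher and 8.19% as lower. Il2rb went the other way in all 8 sets, at 472 against 676 CPM and 582 against 832 CPM, but the log2 ratio of -0.52 on both days is under 1.5-fold. Il7r stood at 292 against 214 CPM and 214 against 136 CPM, log2 ratios of 0.45 (0.36 to 0.54) and 0.65 (0.54 to 0.77). By edgeR with sets as replicates, which sets no fold size, Il2rb (adjusted p = 0.0001969 and 0.0003306) and Il7r (0.0381 and 0.001656) passed as well. Other cell types' markers also differed between the classes. In CD4 against CD8 T cells dendritic cell markers summed to 111 against 29.6 CPM at day 13 and 60.8 against 11.9 CPM at day 19. B cell markers summed to 63.3 against 16.7 CPM and 17.8 against 14.9 CPM, and NK cell markers to 6.71 against 12.2 CPM and 2.65 against 34.6 CPM. Il2ra was called in 23 of 23 settings, those without marker-carrying cells included.

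Within CD4 T cells, Foxp3-positive cells (150 and 125) had more Il2ra and more Il4ra than Foxp3-negative cells (349 and 252). Foxp3 encodes the lineage factor of regulatory T cells, in which CD25 is a defining surface protein. Il2ra stood at 308 against 59.1 CPM at day 13 and 428 against 89.5 CPM at day 19, log2 ratios of 2.38 (2.13 to 2.64) and 2.26 (2.03 to 2.49). Il4ra stood at 113 against 58.4 CPM and 75.1 against 33.2 CPM, log2 ratios of 0.95 (0.64 to 1.26) and 1.18 (0.74 to 1.62). Both were higher in Foxp3-positive cells in all 4 day-13 sets and in the 3 day-19 sets with at least 10 cells on each side. By the same rule 3.59% of 4843 genes were higher and 2.48% lower. Both passed edgeR's test over the sets, Il2ra at adjusted p = 3.551e-05 and 0.0001971 and Il4ra at 0.001853 and 0.007073, when 2.58% of genes passed as higher and 2.44% as lower. Il7r had a log2 ratio of -0.79 (-0.98 to -0.61) at day 13 and 0.05 (-0.16 to 0.25) at day 19, at 199 against 344 CPM and 219 against 211 CPM. Dendritic cell markers summed to 194 CPM in Foxp3-positive cells at day 13, against 50.01 and 82.5 CPM in the Pdcd1-positive and Pdcd1-negative Foxp3-negative classes, and to 77.8 against 32.2 and 89.4 CPM at day 19. Without the cells carrying such markers the Il4ra ratios were 0.86 and 0.99, both called. Without day-19 set 2 too few UMIs were left to test Il4ra, and its day-19 log2 ratio was 0.93.

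Klra7-positive CD8 T cells (401 and 218) had less Il2ra than Klra7-negative ones. Klra7 is a Ly49 family receptor, whose near-identical relatives can share reads, so the class is uncertain to that extent. Il2ra stood at 24.6 against 40.7 CPM at day 13 and 30.3 against 45.6 CPM at day 19, log2 ratios of -0.72 (-1.07 to -0.40) and -0.59 (-0.94 to -0.25), with less in 4 of 4 sets at day 13 and 3 of 4 at day 19. By the same rule 2.13% of 8504 genes were higher and 3.85% lower. With sets as replicates Il2ra did not pass edgeR's test (adjusted p = 0.2177 and 0.4191), which 2.42% of genes passed as higher and 3.28% as lower. Among cells with no Pdcd1 UMI the 2 ratios were -0.03 (-0.47 to 0.40) and -0.09 (-0.73 to 0.52), so the call was lost; it held in 11 of the 24 settings run with the calling rule. The day-19 ratio was 0.15 when set 2 of that day was left out, -0.46 for set 1 and -0.50 for set 4, each likewise not called. It was -1.72 without set 3. Within the Pdcd1-negative cells Il2rb had log2 ratios of 0.84 (0.77 to 0.90) at day 13 and 0.50 (0.41 to 0.59) at day 19. Over all CD8 T cells the Il2rb ratios were 0.67 and -0.065, and those of Il4ra 1.07 and 0.46; among Pdcd1-negative cells those of Il4ra were 0.55 (0.37 to 0.73) and -0.15 (-0.42 to 0.13). NK cell markers summed to 63.9 and 94.7 CPM in Pdcd1-negative Klra7-positive cells against 8.32 and 21.8 CPM in their Klra7-negative counterparts. Without cells with an NK marker UMI the Il2ra ratios over all CD8 T cells were -0.70 and -0.16, and the member was not called.

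**Figure D2:**
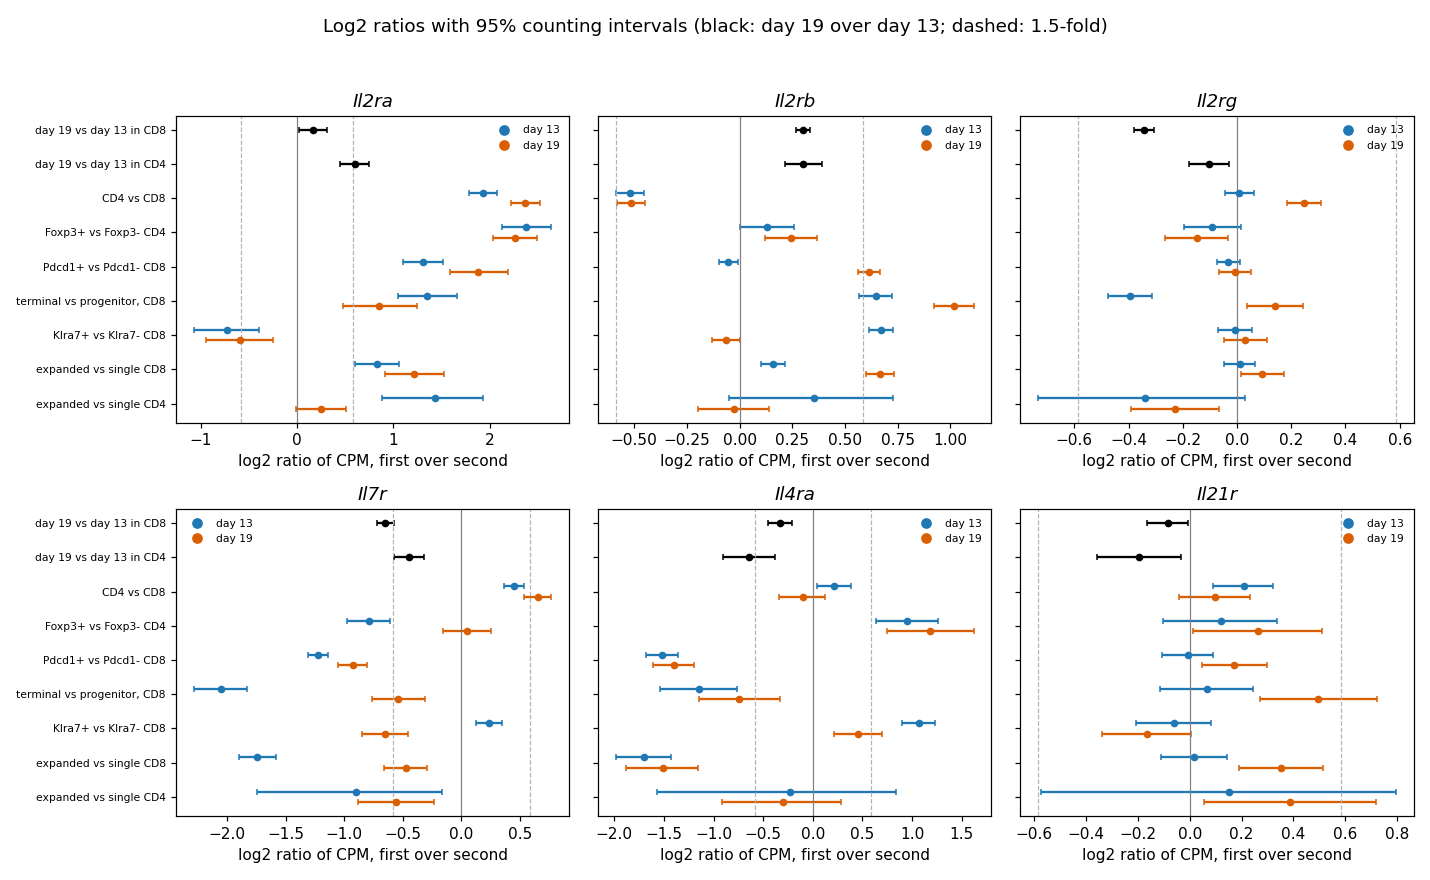
Log2 ratio of CPM (x axis) for each receptor gene in 9 comparisons (y axis), with 95% counting intervals, blue for day 13, orange for day 19 and black for day 19 over day 13; dashed lines mark 1.5-fold. Il2ra, Il7r and Il4ra reach past the dashed lines on both days for Pdcd1, whereas the points of Il2rg and Il21r stay inside them throughout.

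Between the days, CD8 T cells had less Il7r at day 19, and CD4 T cells more Il2ra and less Il4ra. In CD8 T cells Il7r stood at 191, 190, 251 and 206 CPM in the 4 day-13 sets and at 140, 145, 134 and 115 CPM in the 4 day-19 sets. The sums of 214 and 136 CPM gave a log2 ratio of -0.65 (-0.72 to -0.58). By the same rule 5.26% of 10052 genes were higher and 7.33% lower at day 19. Il7r passed edgeR's test over the sets (adjusted p = 0.006008), as 9.15% of genes did as higher and 9.2% as lower. The ratio was under 1.5-fold in 5 settings: -0.38 with at least 8000 UMIs per cell, -0.52 without the third day-13 set, -0.55 without cells with a Mki67 or Top2a UMI, -0.56 without cells with an NK marker UMI and -0.58 without ribosomal and mitochondrial genes. Il2rb (832 against 676 CPM, log2 ratio 0.30) and Il2rg (585 against 742 CPM, -0.34) differed by less than 1.5-fold.

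In CD4 T cells Il2ra stood at 194, 146, 111 and 163 CPM in the day-13 sets and 230, 224, 197 and 243 CPM in the day-19 sets. The log2 ratio of the sums was 0.60 (0.45 to 0.75). Il4ra stood at 54.6, 75.8, 88.8 and 82.5 CPM and then at 53.0, 51.1, 36.6 and 57.7 CPM, where the lowest day-13 set lay inside the day-19 range. Its log2 ratio was -0.64 (-0.91 to -0.38). Without cells carrying B cell, dendritic or choroid plexus markers the ratios were 0.69 for Il2ra and -0.72 for Il4ra. Of 7289 genes, 5.82% were higher and 7.11% lower. Neither passed edgeR's test over the sets (adjusted p = 0.06338 for Il2ra and 0.06364 for Il4ra), which 1.92% of genes passed as higher and 3.5% as lower. Day-19 set 1 held only 12 CD4 T cells. Il2ra was called in 13 of 23 settings and Il4ra in 16 of 23. The Il2ra ratio, where not called, lay between 0.40 with classes from thinned counts and 0.58 without day-19 set 2 or without cells with an NK marker UMI, and was 0.45 without day-13 set 3, 0.46 without cycling cells and 0.57 without day-19 set 4. That of Il4ra, where not called, lay between -0.25 with no macrophage limit and -0.57 with thinned classes, and was -0.45 at 3000 UMIs, and -0.55 and -0.56 when set 3 was left out at day 13 or at day 19.

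Within CD8 classes, Il7r was lower at day 19 in Pdcd1-negative Klra7-positive cells (106 against 265 CPM, log2 ratio -1.32) and in the progenitor class (131 against 239 CPM, -0.87). In the Klra7-positive class the sets ran from 223 to 332 CPM at day 13 and from 45.7 to 132 CPM at day 19. Il4ra was also lower there, at 77.6 against 133 CPM (-0.77), with sets at 97.9 to 137 CPM and then 60.8 to 83.2 CPM. Of 5263 genes in that class 6.99% were higher and 6.59% lower by the same rule. Both members passed edgeR's test over the sets (adjusted p = 0.001207 for Il7r and 0.007851 for Il4ra), as 4.28% of genes did as lower. Il2rb, not called at a log2 ratio of -0.38, also passed edgeR's test (adjusted p = 0.0267). Il7r was called in 23 of 23 settings and Il4ra in 22 of 23, the exception being -0.48 with at least 8000 UMIs. NK cell markers of the class are given above, and without cells with an NK marker UMI the ratios were -1.37 and -0.71, both called.

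In the progenitor class the day-13 sets stood at 139, 176, 327 and 282 CPM of Il7r and the day-19 sets at 180, 109, 144 and 115 CPM, so 2 day-13 sets lay inside the day-19 range. Of 6229 genes in the class 8.93% were higher and 9.7% lower, and Il7r passed edgeR's test over the sets (adjusted p = 0.0352), as 7.43% of genes did as lower. Il2rg, not called at a log2 ratio of -0.50, also passed edgeR's test (adjusted p = 0.02953). Without day-13 set 3 the Il7r ratio was -0.56 and not called, and Il7r was called in the other 22 of 23 settings. B cell markers of the class went from 12.1 to 43.0 CPM and dendritic cell markers from 33.8 to 14.2 CPM. Without cells carrying such markers the ratio was -0.85, called. In the Pdcd1-negative Klra7-negative class, the most numerous (1213 and 538 cells), the Il7r ratio was -0.49 (-0.59 to -0.39), which is under 1.5-fold, and no member was called, as against 3.92% of 8001 genes higher and 5.54% lower. Il7r passed edgeR's test over the sets there (adjusted p = 0.03909), which 3.8% of genes passed as higher and 1.71% as lower.

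In the terminal class the summed Il7r was higher at day 19 (90.4 against 57.6 CPM, 0.65, interval 0.41 to 0.90), but this rested on 1 set. The day-13 sets stood at 68.1, 87.6, 38.9 and 42.0 CPM and the day-19 sets at 71.2, 112, 55.2 and 59.9 CPM, so they overlapped. Without day-19 set 2 the ratio was 0.039. It was called in 16 of 23 settings and not, among others, with equal weight per set (0.34), without the 5% of cells with most UMIs (0.19) or without day-13 set 3 (0.48) or 4 (0.49). Il7r did not pass edgeR's test over the sets (adjusted p = 0.4213), which 1.5% of genes passed as higher, and by the calling rule 3.69% of 6995 genes were higher and 7.93% lower. From day 13 to day 19 the NK cell markers of the class went from 0.87 to 25.5 CPM, with Ncr1 at 0 on both days, its macrophage markers from 38.8 to 85.4 CPM and its dendritic cell markers from 31.0 to 10.7 CPM. The ratio was 0.61 without cells with an NK marker UMI, 0.73 without cells carrying B cell, dendritic or choroid plexus markers and 0.76 in cells with no macrophage gene UMI, all called, and 0.52 with no macrophage limit, not called. The terminal class made up 348 of 1436 CD8 T cells at day 19 and 222 of 2646 at day 13.

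In other Pdcd1-positive CD8 T cells Il2rb was higher at day 19, at 907 against 580 CPM, with sets at 524 to 703 CPM and then 747 to 964 CPM. Of 6757 genes in the class 4.99% were higher and 11.4% lower. Il2rb passed edgeR's test over the sets (adjusted p = 0.02484), as 2.31% of genes did as higher. Its log2 ratio of 0.64 lay close to 1.5-fold and was called in 15 of 23 settings, the lowest value being 0.50 with equal weight per set; leaving out set 2 gave 0.53 for that of day 13 and 0.52 for that of day 19. NK cell markers of the class went from 2.12 to 45.6 CPM, dendritic cell markers from 53.1 to 11.8 CPM and macrophage markers from 44.8 to 82.1 CPM. Without cells with an NK marker UMI, which left 188 cells at day 19 and 431 at day 13, the ratio was 0.52 and not called, and in cells with no macrophage gene UMI it was 0.58 and not called. Without cells carrying the other markers it was 0.61 and called. Il7r had a ratio of 0.10 (-0.14 to 0.33) in this class.

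Within CD4 classes, Foxp3-negative Pdcd1-positive cells had less Il7r (171 against 315 CPM) and less Il4ra (25.2 against 47.9 CPM) at day 19, log2 ratios of -0.88 and -0.93. The Il7r sets ran from 214 to 424 CPM at day 13 and from 118 to 179 CPM in the 3 day-19 sets with at least 10 cells, and those of Il4ra, at 30.5 to 61.1 CPM and 18.6 to 39.5 CPM, overlapped. Of 4307 genes in the class 5.9% were higher and 8.1% lower. Neither member passed edgeR's test over the sets (adjusted p = 0.06161 and 0.1846), which 1.32% of genes passed as lower. Il7r was called in 21 of 23 settings, the exceptions being cells with no macrophage gene UMI (-0.53) and those without day-13 set 3 (-0.56). Il4ra was called in 9 of 23, with too few UMIs left to test in most of the others; it was -0.41 with no macrophage limit, not called, and -0.43 without day-19 set 2, not tested. Macrophage markers in that class went from 77.8 to 230.2 CPM, B cell markers from 4.17 to 22.7 CPM and dendritic cell markers from 50.01 to 32.2 CPM. Without the cells carrying B cell, dendritic or choroid plexus markers the Il7r ratio was -0.84, called, and that of Il4ra -0.90, with too few UMIs left to test.

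Il21r was lower in Foxp3-negative Pdcd1-negative CD4 T cells, at 96.5 against 158 CPM (-0.71), with sets at 128 to 178 CPM and then 65.5 to 115 CPM. Of 3161 genes in the class 3.64% were higher and 8.67% lower. Il21r did not pass edgeR's test over the sets (adjusted p = 0.1976), in which 0 genes passed and 227 were lower at an unadjusted p under 0.05. It was called in 19 of 23 settings, and was -0.32 with classes from thinned counts. In that class B cell markers summed to 115 CPM at day 13 and 22.7 CPM at day 19, and choroid plexus markers to 0.69 and 725 CPM. Without the cells carrying such markers, 80 cells at day 19 and 176 at day 13, the ratio was -0.69 and called. In Foxp3-positive cells no member was called between the days, where 7.01% of 4350 genes were higher and 9.54% lower, with Il2ra at 428 against 308 CPM (log2 ratio 0.48, 0.31 to 0.65). Their Il4ra ratio of -0.58 lay just under 1.5-fold and was called in 10 of 23 settings, at -0.73 without the cells carrying B cell, dendritic or choroid plexus markers. Neither Il2ra (edgeR adjusted p = 0.1807) nor Il4ra (0.1414) passed the test over the sets, which 2.05% of genes passed as higher and 3.1% as lower.

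**Figure D3:**
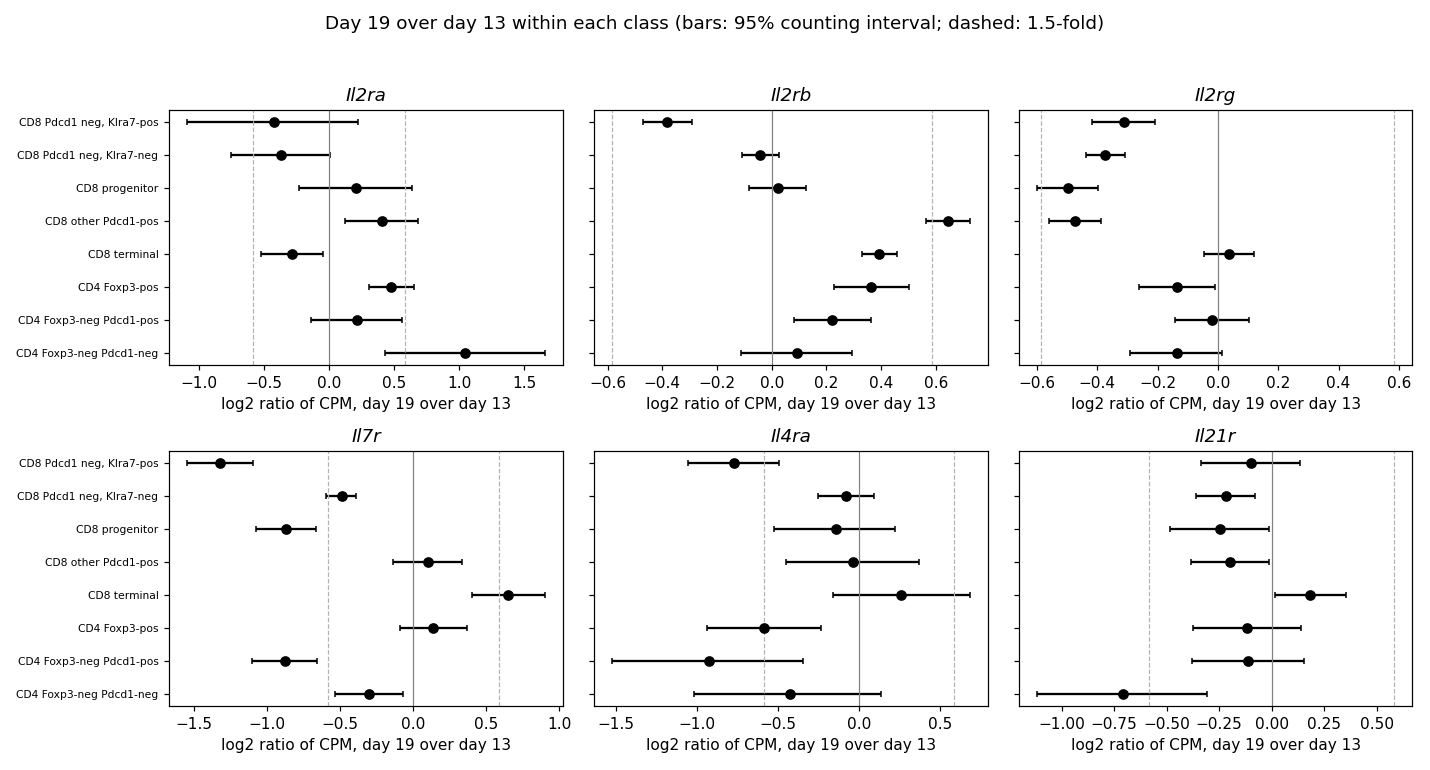
Log2 ratio of CPM at day 19 over day 13 (x axis) within each of 8 classes (y axis), with 95% counting intervals; dashed lines mark 1.5-fold. For Il7r the progenitor and Pdcd1-negative Klra7-positive classes lie left of the lower line and the sum of the terminal class (0.65) right of the upper one, though that ratio is 0.039 without day-19 set 2 and the progenitor sets of the 2 days overlap.

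Expanded CD8 clonotypes, those of at least 3 cells in a set, had more Il2ra and less Il4ra than clonotypes seen once. Il4ra stood at 25.4 against 82.6 CPM at day 13 and 24.8 against 70.6 CPM at day 19, log2 ratios of -1.70 (-1.98 to -1.43) and -1.51 (-1.88 to -1.16), with less in expanded cells in all 8 sets. Il2ra stood at 58.0 against 32.6 CPM and 60.4 against 26.0 CPM, log2 ratios of 0.83 (0.61 to 1.06) and 1.22 (0.91 to 1.53), with more in expanded cells in all 8 sets. Of 7362 genes, 5.77% were higher and 3.72% lower. In the test over sets by edgeR Il4ra passed (adjusted p = 0.0003433 and 0.001817) and Il2ra did not (0.09233 and 0.08136), when 4.62% of genes passed as higher and 4.88% as lower. The Il2ra ratio at day 13 was 0.23 with at least 8000 UMIs per cell, 0.48 without the 5% of cells with most UMIs, 0.53 with expansion set at 5 cells and 0.54 without set 1 of that day, and the day-19 ratio was 0.56 without its set 2, so the member was not called in these settings. Il7r had log2 ratios of -1.74 at day 13 and -0.48 at day 19, and passed edgeR's test with sets as replicates (adjusted p = 3.272e-05 and 0.007931). By the calling rule it was called in 5 of 25 settings, which included equal weight per set and leaving out day-19 set 2. By clone size at day 13, Il7r stood at 249 CPM in clonotypes of 1 cell, 140 CPM in those of 2, 81.2 CPM in those of 3 to 9 and 66.6 CPM in those of 10 or more. At day 19 its levels in the same order were 155, 83.8, 96.9 and 121 CPM, so the lowest class there was that of 2 cells. Il2rb stood at 671, 636, 687 and 818 CPM at day 13 and at 652, 861, 881 and 1143 CPM at day 19. Il2ra stood at 32.6, 44.3, 74.0 and 39.7 CPM at day 13, where the interval of the largest clones, 32.1 to 48.7 CPM, overlapped that of single cells, 29.4 to 36.0 CPM. At day 19 it stood at 26.0, 57.5, 52.0 and 66.3 CPM. The higher Il2ra of expanded cells at day 13 thus lay in clonotypes of 3 to 9 cells. The classes of 10 or more cells held 10 clonotypes at day 13 and 5 at day 19, so they describe few clones.

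Among CD4 T cells no member was called for expansion, with 12 expanded cells at day 13 and 66 at day 19. By the same rule 0.846% of 3311 genes were higher and 0.876% lower. Il2ra had log2 ratios of 1.43 (0.88 to 1.93) and 0.25 (-0.02 to 0.50).

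**Figure D4:**
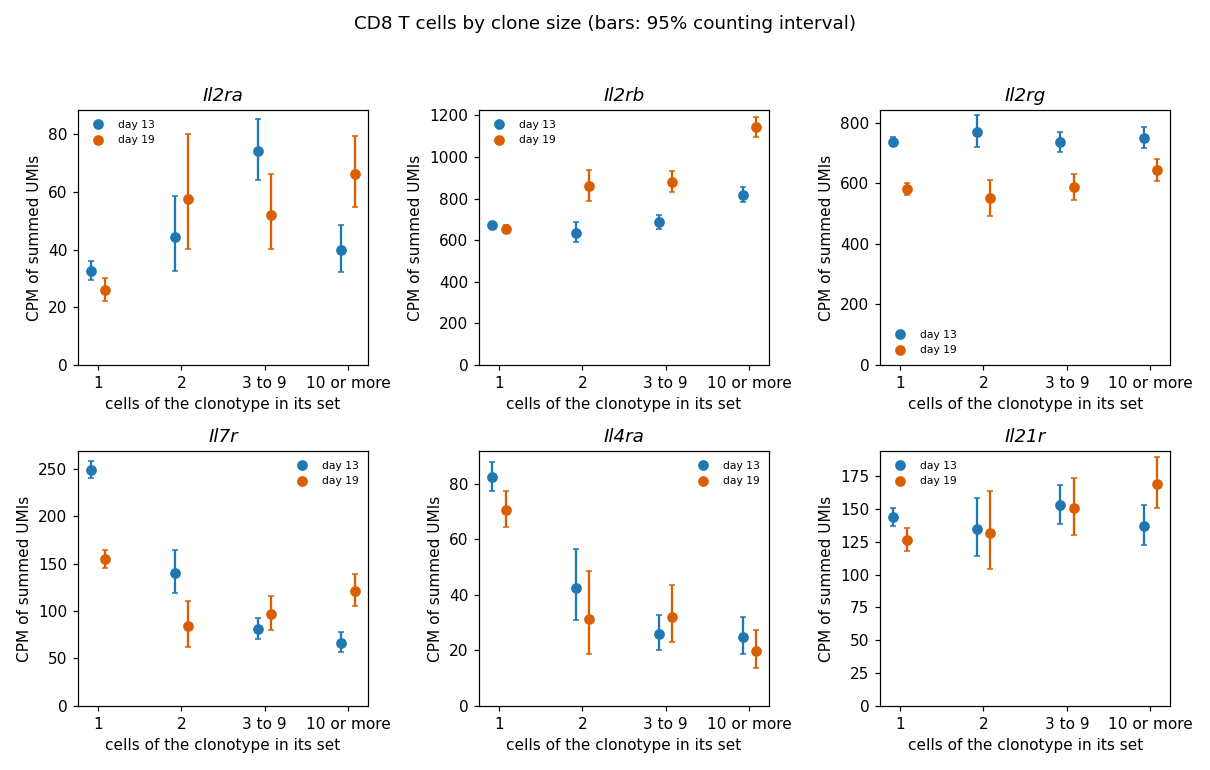
CPM of each receptor gene (y axis) in CD8 T cells grouped by the number of analysed cells of their clonotype (x axis), with 95% counting intervals. Il7r and Il4ra are highest in clonotypes of 1 cell on both days, and Il2rb at day 19 is highest in those of 10 or more.

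Shares of cells with a UMI were taken after thinning every cell to 5000 UMIs, with exact Clopper-Pearson intervals. Il2rg was found in 95.2% of CD8 T cells at day 13 and 93.1% at day 19, and Il2rb in 87.8% and 89.3%. Il2ra was found in 7.9% (6.9 to 9.0%) and 11.7% (10.1 to 13.5%) of CD8 T cells and in 25.5% and 34.7% of CD4 T cells. Macrophage-like barcodes with none of the T cell genes searched, which should lack Il2ra and Il2rb, gave 1.80% and 2.27% for Il2ra and 2.40% and 1.70% for Il2rb, at median depths of 8759 and 9299 UMIs. Their Il7r share was 13.6% and 5.68%, below the lowest T cell class of each day, terminal CD8 T cells at 20.7% and other Pdcd1-positive CD8 T cells at 30.9%. For Il2rg, Il4ra and Il21r, which myeloid cells also express, these barcodes gave 62.3%, 37.9% and 54.5% at day 13 and are no background. Barcodes of at most 50 UMIs held 76.9 and 153 CPM of Il2ra, above its level in every CD8 class of the same day except terminal cells at day 13 (81.0 CPM). In the same barcodes Il7r stood at 241 and 142 CPM and Il4ra at 70.5 and 65.6 CPM, above their levels in Pdcd1-positive CD8 T cells of the same day. From day 13 to day 19 Il7r in these barcodes thus moved in the same direction as in CD8 T cells, and Il2ra in the same direction as in CD4 T cells; the part of free RNA in the results was not tested.

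All 3 chains of the high-affinity IL-2 receptor were found together in 44.0% (35.9 to 52.3%) of Foxp3-positive CD4 T cells at day 13 and 64.0% (54.9 to 72.4%) at day 19. In terminal CD8 T cells the shares were 15.8% and 18.4%, and in the progenitor class 5.61% and 5.59%. The products of the single shares were 42.4% and 60.3% in Foxp3-positive cells, so joint detection lay near what the separate chains give. Il7r and Il2rg were found together in 55.0% of Pdcd1-negative Klra7-negative CD8 T cells at day 13 against 19.4% of terminal ones, and in 47.6% against 29.6% at day 19.

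**Figure D5:**
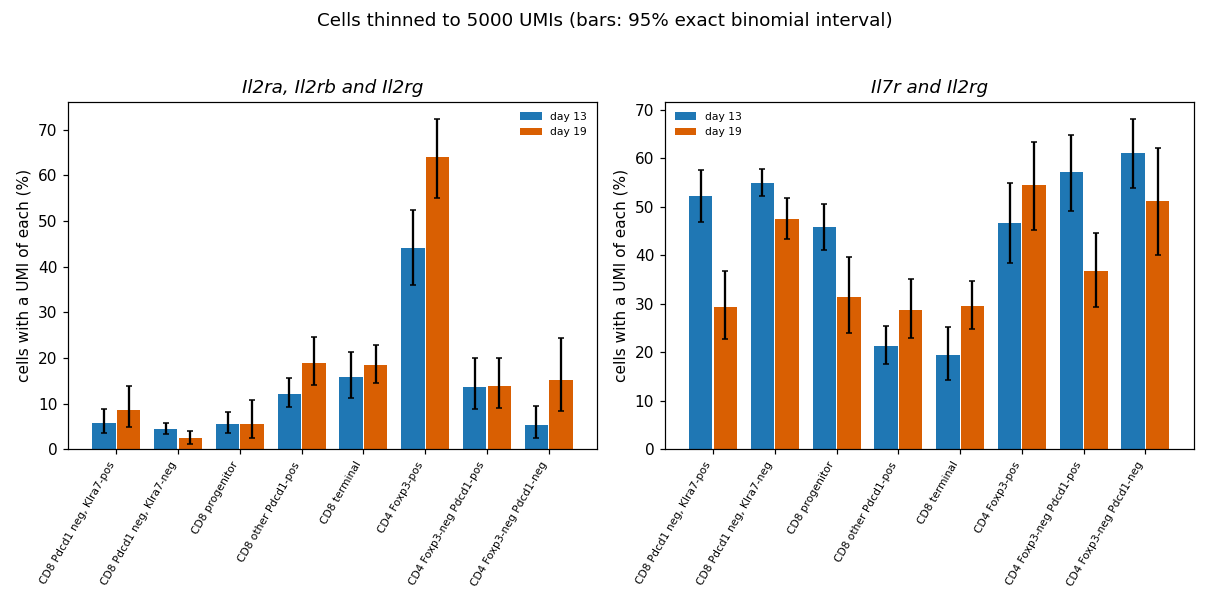
Share of cells (y axis, %) with a UMI of Il2ra, Il2rb and Il2rg together, and of Il7r and Il2rg together, in 8 classes (x axis) at each day, after thinning to 5000 UMIs, with 95% exact binomial intervals. The IL-2 receptor trio is most frequent in Foxp3-positive CD4 T cells, at 44.0% and 64.0%.

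Antibody tags were present for 4 members. Over the 8 classes at day 19 the CD25 tag took 5.43 to 7.46 of every 10000 tag UMIs, the CD122 tag 87.7 to 92.2, the CD127 tag 148 to 162 and the CD124 tag 74.5 to 81.4. The IgG1 isotype control took 24.3 to 27.5. The CD4 tag took 6.48 to 6.95 in the 5 CD8 classes and 14.5 to 15.4 in the 3 CD4 classes, and the CD8a tag 21.5 to 23.5 and 19.3 to 21.0, so neither tag overlapped between the lineages and the gap of the CD8a tag was small. The highest CD25 value, 7.46, was that of Foxp3-positive cells, with a median of 1 tag UMI per cell. The values of the CD122, CD127 and CD124 tags lay close together over the classes. No surface level is read from any of the 4 member tags, CD25 included.

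Of 27 other genes of the pathway, 2 were higher and 4 lower in Pdcd1-positive CD8 T cells, among 17 that could be tested, where 8.82% of all genes were higher and 3.32% lower. Socs2 and Cish, listed as feedback inhibitors of the pathway, were higher, with log2 ratios of 1.06 and 0.80 at day 13 and 1.29 and 0.84 at day 19. Socs3, listed as feedback too, and Bcl2, Pim2 and Myc, listed as targets of the pathway, were lower. Socs3 stood at 114 against 290 CPM and 45.1 against 221 CPM. The genes thus went in both directions, and signalling was not measured. Socs2 and Cish were also higher in terminal than progenitor cells and in expanded CD8 clonotypes, and Crlf2, the TSLP receptor chain that pairs with Il7r, was higher in expanded CD8 clonotypes (log2 ratios 0.65 and 1.01). Terminal cells had 2 genes higher and 3 lower of 17 (all genes, 3.49% and 4.29%), and expanded CD8 cells 3 and 3 of 17 (5.77% and 3.72%).

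In CD4 against CD8 T cells 5 of 18 pathway genes were higher and 3 lower, against 7.95% and 4.08% of all genes. Il2, the cytokine itself, stood at 90.1 against 4.39 CPM at day 13 and 40.1 against 1.68 CPM at day 19. In Foxp3-positive CD4 T cells Il2 stood at 1.27 against 139 CPM in Foxp3-negative cells at day 13 and 2.03 against 64.6 CPM at day 19. The Foxp3-positive values rest on very few UMIs, 1.27 CPM at day 13 being 2 UMIs. In this comparison 2 of 17 genes were higher and 3 lower, against 3.59% and 2.48% of all genes. Between the days Il2 was lower at day 19 in both CD4 and CD8 T cells, and Il21 was higher in CD4 T cells, at 27.6 against 4.02 CPM. No check by contig set or edgeR is given for pathway genes, and set 2 held 220 of the 377 CD4 T cells of day 19. The day comparison called 4 lower and none higher of 19 in CD8 T cells (all genes, 7.33% lower and 5.26% higher), and 1 higher and 4 lower in CD4 T cells (5.82% and 7.11%). Klra7-positive CD8 T cells had 3 higher (Socs3, Pim2 and Myc) and 2 lower (Crlf2 and Socs2) of 17, against 2.13% and 3.85% of all genes, and expanded CD4 T cells 1 lower of 15, Myc, against 0.876%.

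Over 16 profiles, 8 classes at 2 days, the genes most like each member among 7173 genes were ranked by Pearson correlation of log2 CPM, as a description with no test; profiles of 1 day share a capture. Il2ra was closest to Tnfrsf1b, Arl5a and Rab11a (each r = 0.95), Il7r to Rbm33 (0.94), Ube2h (0.92) and Tcp11l2 (0.91), and Il4ra to Sesn1 (0.95), Maff (0.90) and Abl2 (0.89). Il2rb was closest to Ptpn6 (0.89), Ppcdc (0.87) and Igf2r (0.86), Il2rg to Shisa5 (0.90), Tnfaip3 (0.89) and Rchy1 (0.88), and Il21r to B2m, Ostm1 and Srd5a3 (0.83, 0.83 and 0.82). Il2rg and Il21r varied least among the members across classes, at 543 to 817 CPM and 96.5 to 173 CPM.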

How the data were processed

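Single-cell gene expression, antibody tag and T cell receptor libraries of CD3+ cells from day-13 and day-19 tumors were used. The authors deposited raw UMI counts per feature and barcode, unfiltered, and TCR contig tables with UMI counts; the submitters' processing notes name Cell Ranger 4.0.0, STAR 2.7.5c and mm10. Raw counts of a class were summed per day and given as CPM, UMIs per 1000000 gene UMIs, and ratios carry exact conditional Poisson intervals (scipy 1.17.1, numpy 2.4.6, Python 3.11.15). Shares used cells thinned to 5000 UMIs. A clonotype is exactly 1 TRA and 1 TRB contig with identical CDR3 nucleotides within a set. Barcodes with Cd4 and Cd8 UMIs were in no class, and no doublet caller was run. A count of 0 was set to 3 to give a bound. Genes with at least 100 UMIs in the compared sums formed the background. Named genes were the 6 members, pathway genes past the fold and, per member, the 3 most correlated genes. The members and lists were chosen with earlier results of these data known. The ratio calculation was tested on simulated data. The 2 matrices hold 144565182 and 81224453 gene UMIs over all barcodes. Alternatives covered depth, macrophage-gene limits, class rules, scaling, set weighting, cycling cells and each contig set; keeping only cells on their own multiplexing tag, leaving out cells with B cell, dendritic or choroid plexus markers or with NK markers, and summing counts per contig set for edgeR's quasi-likelihood test (edgeR 4.0.16, R 4.3.3, set as block within a day, tested on simulated data) were chosen after seeing the data, as were all settings for the days within classes. Intervals cover counting error only, since cells of 1 capture are not replicates.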

Additional observations from a re-analysis of the deposited data

Results flagged for a closer look

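Members whose direction was opposite on the 2 days, with both counting intervals off 0, are given as values; the difference between the days was not tested, and each day is 1 capture. Il2rb in Pdcd1-positive against Pdcd1-negative CD8 T cells had a log2 ratio of -0.054 at day 13 and 0.62 at day 19. Il2rg in terminal against progenitor CD8 T cells had -0.39 at day 13 and 0.14 at day 19. Il7r in Klra7-positive against Klra7-negative CD8 T cells had 0.24 at day 13 and -0.65 at day 19, and among Pdcd1-negative cells -0.23 and -1.06.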

How the results depend on the processing

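Of 15 member differences called, 5 were called under every setting run with the calling rule: Il2ra for CD4 against CD8, for Foxp3 and for Pdcd1, and Il4ra for Pdcd1 and for expanded CD8 cells. With contig sets as replicates in edgeR, and the set as a replicate block within a day, the members passing numbered 3 for CD4 against CD8, 2 for Foxp3, 3 for Pdcd1, 1 for terminal cells, 0 for Klra7 and 2 for expanded CD8 cells (Il7r and Il4ra); between days, where sets cannot be paired, 1 passed in CD8 and 0 in CD4 T cells. The 5 named passed it too, and the labels do not tie sets to the stated replicates. The count of members called between days in CD8 T cells was 1 and became 0 at 8000 UMIs, without ribosomal and mt genes, without cycling cells, without NK marker cells and in Pdcd1-negative Klra7-negative cells, and 2 in Pdcd1-negative Klra7-positive cells. In CD4 T cells it was 2 and became 1 with no macrophage limit, centred on the median, with equal set weights, without NK marker cells, with 2 UMIs for the class (Il7r in place of both) and in Foxp3-negative Pdcd1-negative cells (Il21r in place of both), and 0 with thinned classes, without cycling cells and in Foxp3-positive cells. Counts that stayed at 2 held Il7r in place of Il4ra at 3000 UMIs and in place of Il2ra at 8000 UMIs and in Foxp3-negative Pdcd1-positive cells; that of 1 in other Pdcd1-positive CD8 cells was Il2rb. For CD4 against CD8 it was 1 and became 2 at 3000 UMIs (with Il7r), and at 8000 UMIs, with no macrophage limit and without ribosomal genes (with Il2rb). For Klra7 it was 1, became 2 at 8000 UMIs, and became 0 at 3000 UMIs, with no macrophage limit, without ribosomal genes, with equal weights, without cycling cells, without the top 5% of UMIs, with 2 UMIs for the class, without cells carrying NK or other cell types' markers and in Pdcd1-negative cells. For expanded CD8 cells it was 2 and became 1 at 8000 UMIs, without the top 5% and with at least 5 cells. Il7r was called beside Il2ra and Il4ra with no macrophage limit, with thinned classes, without ribosomal and mt genes and with equal set weights. Without day-19 set 2 Il7r stood in place of Il2ra. For expanded CD4 cells the count was 0 and became 1 at 3000 UMIs (Il2ra) and, with Il7r, with no macrophage limit, with thinned classes and without the top 5%. Leaving out 1 contig set gave 0 to 1 members for days in CD8, 0 to 2 for days in CD4, 1 for CD4 against CD8, 1 to 2 for Foxp3, 3 for Pdcd1, 2 to 3 for terminal cells, 0 to 1 for Klra7, 1 to 2 for expanded CD8 and 0 to 1 for expanded CD4. The log2 ratio of Il7r between days reversed to 0.10 in other Pdcd1-positive and 0.65 in terminal CD8 cells (0.039 without day-19 set 2), and that of Il2ra for Klra7 at day 19 to 0.15 without day-19 set 2, the lowest value with a contig set left out being -1.72. Causes were not tested. For expanded CD4 cells 9 settings left under 10 cells and were not run, nor could the fit over contig sets be made. A filter of 20 UMIs raised the genes called in CD4 against CD8 from 718 to 1099 higher.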
